A study of Rattus norvegicus with 18 samples.

Results

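Expression of 10 genes of Toll-like receptor sensing was followed in rat kidney across 18 RNA sequencing libraries. The genes were Tlr1, Tlr2, Tlr3, Tlr4, Tlr7, Tlr8, Cd14, Ly96, Myd88 and Tifa, chosen by name from a table of 32116 genes. For 8 of them the symbol stood in the table's name column, and the rows of Tlr7 and Tlr8, which carried only an identifier as name, were found by the table's own description. The 3 groups held 6 libraries each. NC rats were untreated. CKD rats were dosed daily with adenine (100 mg per kg), which damages kidney tubules and is widely used to model chronic kidney disease. SZ rats had that adenine dose plus a daily dose of SZ-A (300 mg per kg). The CKD and SZ groups therefore share adenine, and no group received SZ-A without adenine. All RNA came from kidneys, extracted with Trizol. For the strain, sex and age of the rats, the length of treatment and the nature of SZ-A, nothing is given in the sources used here. The labels do not state whether the 6 libraries of a group are 6 animals, so the p-values cover library-to-library spread, part of which may be technical.

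Toll-like receptors are membrane proteins of innate immunity that bind conserved parts of microbes and, in injured tissue, molecules released by damaged cells. The product of Tlr4 binds bacterial lipopolysaccharide through its co-receptor MD-2, encoded by Ly96, after CD14 has passed the lipid on. TLR2 pairs with TLR1 to bind lipoproteins, while TLR3, TLR7 and TLR8 sit in endosomes, where TLR3 binds double-stranded RNA and TLR7 and TLR8 bind single-stranded RNA or its breakdown products. MyD88 is the adaptor through which all of these receptors except TLR3 signal. TIFA binds TRAF adaptors downstream of several innate sensors, and of the kinase ALPK1 that responds to a bacterial sugar. In kidney, tubule cells, endothelium and resident and infiltrating leukocytes all express members of the family.

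The members lie on 7 chromosomes of the rat build mRatBN7.2, in which Tlr7 (X, 27027425 to 27054754) and Tlr8 (X, 27091778 to 27116549) are neighbours on the same strand. Tlr1 spans 43384932 to 43397125 of chromosome 14, and Tlr2 spans 169197419 to 169206630 of chromosome 2. Tlr3 spans 46822039 to 46836545 of chromosome 16, and Tlr4 spans 80145826 to 80159628 of chromosome 5, which also holds Ly96 (2582254 to 2612386). Cd14 spans 28335340 to 28337261 of chromosome 18 and Myd88 119074437 to 119079415 of chromosome 8. Tifa (chromosome 2, 216234774 to 216267841) overlaps Alpk1, which is on the opposite strand, from 216234774 to 216247157. The sources used here do not give the strand handling of the counting, so reads of Tifa and Alpk1 in that stretch cannot be told apart. Tlr6 and Tlr10 are paralogues of Tlr1, and whether reads were shared among them was not tested.

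Promoters of 9 members are in the RefSeq table of the build GRCr8, and Ly96 is named only. Those of 4 receptors are printed because they carry the letters GAGGAA, the core of sites for the myeloid transcription factor PU.1, and because the transcripts differed in how they followed treatment. Each is the 250 bases before the annotated start, 5′ to 3′ on the gene's strand, with capitals marking GAGGAA on either strand (TTCCTC where it lies on the opposite strand). The windows are chrX:30644176-30644425 for Tlr7, chrX:30708476-30708725 for Tlr8, chr5:85160997-85161246 for Tlr4 and chr16:53554666-53554915 for Tlr3, all on the plus strand.
Tlr7: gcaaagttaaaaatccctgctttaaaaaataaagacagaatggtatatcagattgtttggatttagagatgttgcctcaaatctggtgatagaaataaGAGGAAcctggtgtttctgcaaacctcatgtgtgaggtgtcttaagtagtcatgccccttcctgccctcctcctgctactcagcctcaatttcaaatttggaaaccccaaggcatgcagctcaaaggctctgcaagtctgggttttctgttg
Tlr8: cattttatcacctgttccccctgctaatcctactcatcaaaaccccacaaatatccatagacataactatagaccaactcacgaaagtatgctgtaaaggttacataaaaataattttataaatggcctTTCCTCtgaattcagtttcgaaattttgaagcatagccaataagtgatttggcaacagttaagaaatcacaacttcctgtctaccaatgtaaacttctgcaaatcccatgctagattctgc
Tlr4: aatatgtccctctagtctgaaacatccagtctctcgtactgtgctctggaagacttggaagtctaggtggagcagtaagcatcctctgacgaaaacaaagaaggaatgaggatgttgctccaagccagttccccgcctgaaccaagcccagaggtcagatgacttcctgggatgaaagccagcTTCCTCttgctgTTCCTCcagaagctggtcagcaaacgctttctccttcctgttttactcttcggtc
Tlr3: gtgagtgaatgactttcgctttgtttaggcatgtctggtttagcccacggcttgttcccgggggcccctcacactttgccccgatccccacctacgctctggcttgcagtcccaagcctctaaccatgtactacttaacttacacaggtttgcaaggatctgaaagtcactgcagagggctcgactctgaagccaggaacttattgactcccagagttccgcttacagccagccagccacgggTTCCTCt
The match lies 152 bases before the start in Tlr7, 121 in Tlr8, 67 and 55 in Tlr4, and 7 in Tlr3. In windows that run 50 bases past the start, GAGGAA was found in 5 of the 9 members (the fifth is Cd14) and in 27.6% of all 33469 windows. The core of interferon-stimulated response elements, searched by name on either strand, was found in 1 of the 9 members, Myd88, and in 3.92% of all windows. For NF-kB only an exact sequence with no variable positions was searched, and it was found in 0 of the 9 members and in 0.111% of all windows. Other forms of the NF-kB site were not searched, so this count cannot show that the members lack such a site. The searched letters of the 3 motifs do not contain one another. A match describes letters only, and these data hold no measure of factor binding.

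Values are FPKM, fragment counts scaled by exon length and library size, so levels of different genes are set side by side per length. Depth was even, with 15354358 to 18532375 reads recovered per library, and the lowest read number behind a member in a library was 27, for Ly96. The libraries CKD 2, CKD 5 and SZ 3 stand apart in how values followed gene length, with slopes of -0.211, -0.312 and -0.248 log2 units per doubling, against -0.1 in CKD 1 and 0.0111 to 0.115 in the other libraries. Of 8 kidney markers, 7 were called lower in CKD than in NC, against 26.0% of all tested genes. In SZ against NC 4 were called lower, against 8.61%, and Aqp2 was not called in either comparison. The summed level of the 8 markers was 2817 to 3809 FPKM in NC, 805.3 to 1644 in CKD and 1532 to 2207 in SZ. Slc34a1 and Umod contribute most to it. The deposited scaling leaves the median tested gene at a log2 difference of -0.04 for CKD against NC. Scaling to a fixed FPKM sum moves this to 0.36 and scaling to plain read totals to 0.25, so directions below are relative to the deposited scaling. In that comparison 48.4% of called genes were higher, against 83.6% and 77.8% under those 2 scalings. For SZ against CKD the share was 37.9%, against 14.5% and 17.7%, and for SZ against NC 59.1%, against 92.6% and 88.4%.

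Adenine raised most of the sensing genes, and the strongest changes were in Cd14 and Tifa, whose mean levels were more than 10 times higher in CKD than in NC. In CKD against NC, 9 of the 10 members were called higher and 0 lower by limma (adjusted p under 0.05 over 13851 tested genes), where 24.4% of all tested genes were called higher. The exception was Tlr3, which was not called, as were 49.7% of tested genes, while 50.3% were called in 1 direction or the other. In 8 members every CKD library lay above every NC library, a pattern found in 14.2% of tested genes. The median log2 difference over the members was 1.24, against -0.04 over all tested genes. All 10 members passed the filter on low values, which asks for 1 FPKM in 6 libraries. For 5 of them NC alone would not have met it, since 0 of 6 NC libraries reached 1 FPKM for Tlr2, 2 for Tlr7, 2 for Tlr8, 3 for Tifa and 5 for Tlr4. These passed through the CKD and SZ libraries, where they are higher, so their place among the called genes is in part set by the filter.

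With SZ-A added, 5 members were lower than in CKD: Tifa, Cd14, Ly96, Tlr8 and Tlr7. Lower calls made up 6.82% of all tested genes (945 genes, but 370 without SZ 4, 459 without CKD 5, 557 without SZ 1, 575 without SZ 2, 1585 without CKD 1 and 1590 without SZ 3), and 0 members were called higher. The other 5 members were not called, against 89.0% of tested genes. In 3 of the 5 (Tifa, Cd14 and Ly96) the SZ libraries all lay under the CKD libraries, against 1.63% of tested genes. The number of members called fell to 3 when CKD 2, CKD 5 and SZ 3 were left out and when only these 2 groups were fitted. The members lost in both cases were Tlr7 and Tlr8. Without those 3 libraries 9 members were still called higher in CKD against NC. The median over the members was -0.47, against 0.01 over all tested genes. SZ kidneys still differed from NC, with 9 of 10 members called higher against 12.5% of all tested genes, and Tlr3 not called, against 78.9%. In 7 the ranges did not overlap, against 8.86% of tested genes. The 3 comparisons share libraries with each other and are not independent.

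**Figure D1:**
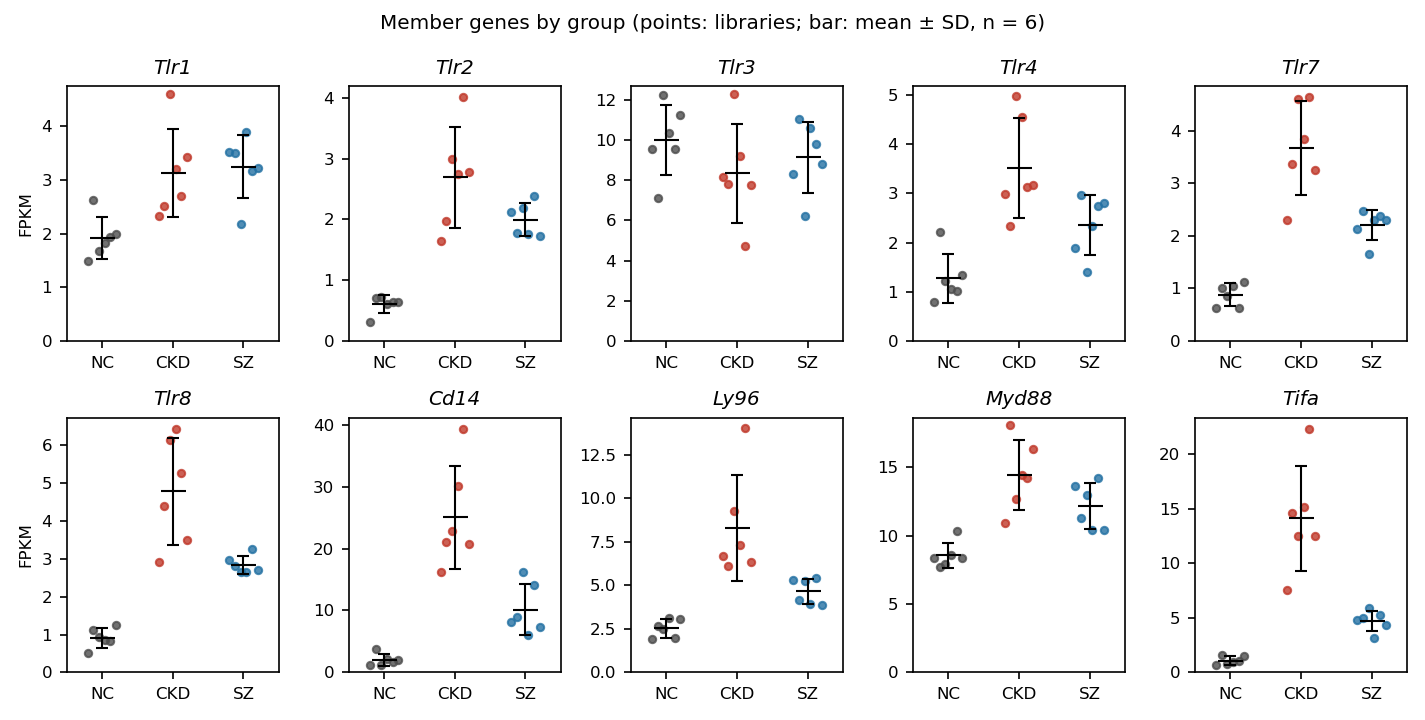
FPKM of each member in every library (points, linear axes from 0 that differ between genes) for the untreated (NC), adenine (CKD) and adenine plus SZ-A (SZ) groups of 6, with bars at the mean ± SD. Cd14 and Tifa are at 16.28 or more and 7.539 or more in every CKD library and at 3.785 or less and 1.625 or less in NC, while the Tlr3 groups overlap.

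All 3 lipopolysaccharide sensing genes rose with adenine, and Cd14 and Ly96 were lower with SZ-A added. Cd14, the surface protein that hands lipopolysaccharide to the receptor, ran from 1.18 to 3.79 FPKM in NC (median 1.88), from 16.3 to 39.2 in CKD (median 21.9) and from 5.96 to 16.2 in SZ (median 8.54). The 3 ranges did not overlap, although SZ 3, the highest SZ library, came to within 0.1 FPKM of CKD 1, the lowest CKD library. Group means were 2.03 (SD 0.956, n = 6), 25.02 (SD 8.29) and 10.1 (SD 4.10) FPKM. The log2 difference in FPKM + 1 was 3.10 for CKD against NC (SE 0.24, limma adjusted p = 3.1e-08). For SZ against CKD it was -1.25 (SE 0.24, limma adjusted p = 0.0064), and for SZ against NC it was 1.85 (limma adjusted p = 3.9e-05).

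Ly96, whose product MD-2 holds the lipid in the receptor complex, ran from 1.90 to 3.11 FPKM in NC (median 2.57), from 6.10 to 14.0 in CKD (median 7.004) and from 3.88 to 5.41 in SZ (median 4.70). All 6 SZ libraries lay between the highest NC library and the lowest CKD library. The difference was 1.36 for CKD against NC (SE 0.16, limma adjusted p = 2.5e-06) and -0.67 for SZ against CKD (SE 0.16, limma adjusted p = 0.017). The highest value, 14.0 FPKM, was that of CKD 5, and the next CKD library was at 9.26. Without CKD 2, CKD 5 and SZ 3 the SZ against CKD difference was -0.60 (limma adjusted p = 0.015).

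Tlr4, the signalling receptor itself, rose with adenine and was not called in SZ against CKD. It ran from 0.793 to 2.21 FPKM in NC (median 1.13), from 2.33 to 4.97 in CKD (median 3.15) and from 1.40 to 2.97 in SZ (median 2.54). CKD lay wholly above NC, and SZ overlapped both groups. For CKD against NC the log2 difference was 0.99 (SE 0.17, limma adjusted p = 9.3e-05). The SZ against CKD difference was -0.42 (SE 0.17, 95% interval -0.77 to -0.07), which did not pass after adjustment over all genes (limma adjusted p = 0.10). The SZ against NC difference of 0.57 passed (limma adjusted p = 0.022), but not without NC 1 (0.50, adjusted p = 0.055), SZ 2 (0.52, adjusted p = 0.050) or SZ 5 (0.53, adjusted p = 0.051).

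The lipoprotein receptors rose with adenine and were not called in SZ against CKD. Tlr2 ran from 0.313 to 0.724 FPKM in NC (median 0.646), from 1.65 to 4.01 in CKD (median 2.76) and from 1.73 to 2.39 in SZ (median 1.95). Every treated library lay above every NC library, and the SZ range fell inside the CKD range. The mean was 4.42 times higher in CKD than in NC, and the log2 difference was 1.17 (SE 0.13, limma adjusted p = 1.4e-06). With 0.1 in place of 1 added to FPKM, this difference was 1.96, so the scale understates low genes such as Tlr2. For SZ against CKD it was -0.27 (SE 0.13, 95% interval -0.55 to 0.01, limma adjusted p = 0.18). Without CKD 1 this last difference was called (-0.36, limma adjusted p = 0.047).

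Tlr1, the partner of TLR2 for triacylated lipoproteins, ran from 1.49 to 2.63 FPKM in NC (median 1.89), from 2.34 to 4.60 in CKD (median 2.96) and from 2.18 to 3.89 in SZ (median 3.37). NC 2, at 2.63 FPKM, lay within the range of both treated groups. The difference was 0.49 for CKD against NC (SE 0.13, limma adjusted p = 0.0059) and 0.54 for SZ against NC (SE 0.13, limma adjusted p = 0.0085). SZ differed from CKD by 0.05 (SE 0.13, 95% interval -0.23 to 0.33, limma adjusted p = 0.83). This value turned to -0.07 under scaling to a fixed FPKM sum and to -0.05 under plain totals.

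Among the endosomal receptors, Tlr7 and Tlr8 rose with adenine and Tlr3 was not called in any comparison. Tlr7 ran from 0.623 to 1.13 FPKM in NC (median 0.929), from 2.30 to 4.65 in CKD (median 3.61) and from 1.66 to 2.48 in SZ (median 2.30). Both treated groups lay wholly above NC, and CKD 1, at 2.30 FPKM, was the only CKD library within the SZ range. The log2 difference was 1.30 for CKD against NC (SE 0.13, limma adjusted p = 3.1e-07). For SZ against CKD it was -0.52 (SE 0.13, limma adjusted p = 0.018), but -0.41 (limma adjusted p = 0.065) without CKD 2, CKD 5 and SZ 3. With only the CKD and SZ libraries in the fit, the adjusted p was 0.051.

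Tlr8 ran from 0.503 to 1.26 FPKM in NC (median 0.897), from 2.93 to 6.44 in CKD (median 4.84) and from 2.65 to 3.26 in SZ (median 2.76). SZ libraries were closer to each other (SD 0.237 FPKM) than CKD libraries (SD 1.42 FPKM), and only CKD 1 reached into their range. The difference was 1.57 for CKD against NC (SE 0.14, limma adjusted p = 1.6e-07) and -0.55 for SZ against CKD (SE 0.14, limma adjusted p = 0.023). The call for SZ against CKD was lost without CKD 3 (-0.48, adjusted p = 0.053), CKD 5 (-0.52, adjusted p = 0.057) or SZ 4 (-0.54, adjusted p = 0.059). It was also lost without CKD 2, CKD 5 and SZ 3 together (-0.51, adjusted p = 0.071) and with only these 2 groups in the fit (adjusted p = 0.059).

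Tlr3, which signals through TRIF in place of MyD88, was the most abundant member in NC kidney by mean. It ran from 7.12 to 12.2 FPKM in NC (median 9.95), from 4.73 to 12.3 in CKD (median 8.01) and from 6.23 to 11.0 in SZ (median 9.32). The 3 ranges overlapped broadly, and the lowest values in CKD and SZ were those of CKD 5 and SZ 3. The log2 difference for CKD against NC was -0.26 (SE 0.17, 95% interval -0.62 to 0.09, limma adjusted p = 0.21). It was -0.09 without CKD 2, CKD 5 and SZ 3 and turned to 0.15 under scaling to a fixed FPKM sum and 0.05 under plain totals. SZ differed from CKD by 0.14 (SE 0.17, 95% interval -0.22 to 0.50) and from NC by -0.12 (95% interval -0.48 to 0.24). The SZ against NC value also turned under those scalings, to 0.16 and 0.07.

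The signalling members behaved unequally. Myd88 ran from 7.71 to 10.3 FPKM in NC (median 8.40), from 10.9 to 18.1 in CKD (median 14.4) and from 10.4 to 14.2 in SZ (median 12.2). Treated libraries all lay above NC, narrowly so at NC 5 (10.3 FPKM) and SZ 4 (10.4 FPKM). The difference was 0.68 for CKD against NC (SE 0.11, limma adjusted p = 9.2e-05) and 0.46 for SZ against NC (SE 0.11, limma adjusted p = 0.0085). That for SZ against CKD was -0.22 (SE 0.11, 95% interval -0.46 to 0.02, limma adjusted p = 0.20).

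Tifa ran from 0.707 to 1.63 FPKM in NC (median 0.980), from 7.54 to 22.3 in CKD (median 13.6) and from 3.14 to 5.86 in SZ (median 4.90). No 2 groups overlapped, and the mean fell from 14.1 FPKM (SD 4.82) in CKD to 4.73 (SD 0.929) in SZ. The log2 difference was 2.81 for CKD against NC (SE 0.19, limma adjusted p = 6.8e-09), -1.35 for SZ against CKD (SE 0.19, limma adjusted p = 0.0021) and 1.46 for SZ against NC (limma adjusted p = 3.3e-05). Alpk1, the overlapping gene on the other strand, differed by 0.82 in CKD against NC (limma adjusted p = 0.0013) and by -0.17 in SZ against CKD (limma adjusted p = 0.56). The share of Tifa reads that come from Alpk1, or the reverse, was not tested.

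**Figure D2:**
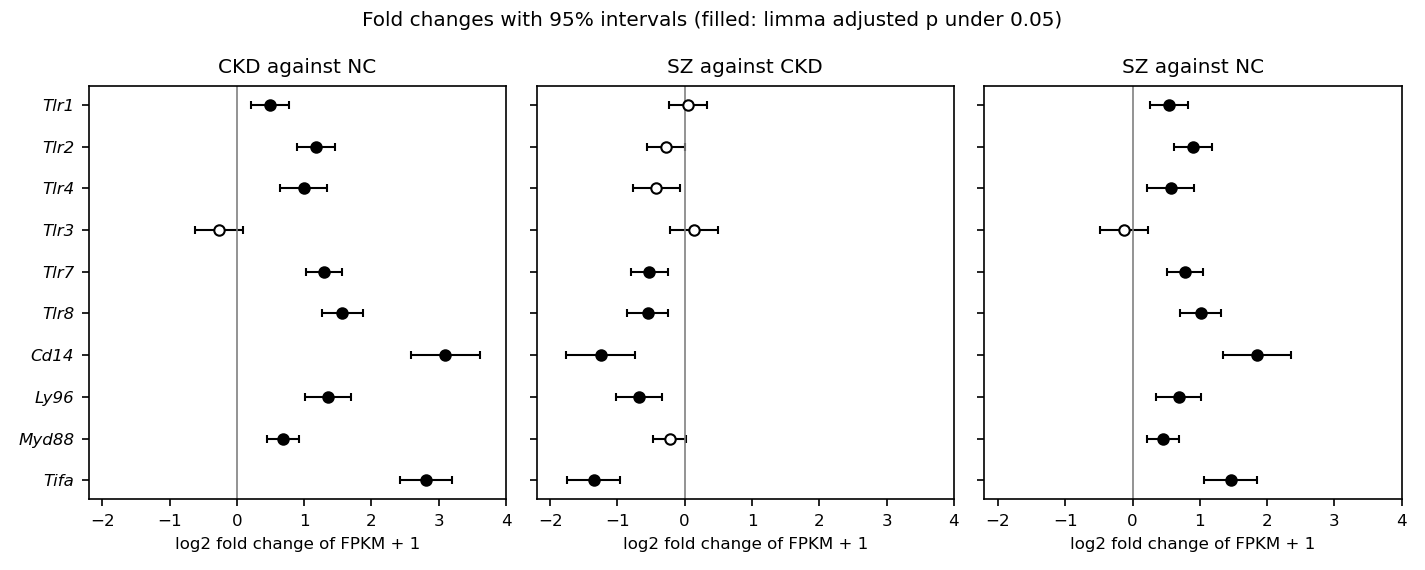
Log2 difference in FPKM + 1 for each member in CKD against NC, SZ against CKD and SZ against NC (points, with 95% limma intervals). Cd14 and Tifa are farthest from 0 in CKD against NC (3.10 and 2.81) and in SZ against CKD (-1.25 and -1.35), and the intervals of Tlr3 include 0 in all 3 comparisons.

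Whether 2 members changed by different amounts was asked within libraries, as the difference of their log2(FPKM + 1) values, for 7 pairs and 3 comparisons. An exact 2-sided permutation test over all splits of 6 against 6 was used, for which 0.0022 is the smallest p possible, with adjustment over the 21 tests, and 12 passed. Cd14 exceeded Tlr4 by 0.39 log2 units in NC (SD 0.230, n = 6) and by 2.498 in CKD (SD 0.465), a difference of 2.11 (exact permutation p = 0.0022, adjusted p = 0.0057). In SZ Cd14 exceeded Tlr4 by 1.67 (SD 0.674), which was 0.83 less than in CKD, with an adjusted exact permutation p of 0.066, or 0.018 without SZ 3. Ly96 and Tlr4, whose products form 1 complex, differed by 0.65 in NC, 1.01 in CKD and 0.76 in SZ, and no change between groups passed (exact permutation p of 0.10 for CKD against NC, 0.36 for SZ against CKD and 0.58 for SZ against NC). Tlr2 against Tlr4 did not pass in any comparison either, with shifts of 0.18, 0.15 and 0.33, although the last, SZ against NC, passed with 0.1 added to FPKM (0.72, adjusted exact permutation p = 0.033).

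Tlr1 exceeded Tlr2 by 0.86 log2 units in NC and by 0.17 in CKD, a shift of -0.69 (exact permutation p = 0.0022, adjusted p = 0.0057). In SZ the margin was 0.50, a shift of 0.33 from CKD that did not pass (adjusted exact permutation p = 0.13), except without SZ 3 (0.43, adjusted p = 0.023). Against NC it was a shift of -0.36 (adjusted exact permutation p = 0.030), which no longer passed without CKD 2, CKD 5 and SZ 3 (-0.26, adjusted p = 0.061). Leaving out any 1 of NC 1, NC 2, NC 5, NC 6, SZ 1, SZ 3, SZ 5 or SZ 6 also lost it. Tlr3 exceeded Tlr7 by 2.54 in NC, 0.98 in CKD and 1.65 in SZ. All 3 shifts of this pair passed (-1.56, 0.66 and -0.90, with adjusted exact permutation p of 0.0057, 0.010 and 0.0057). Tlr8 and Tlr7, the neighbouring pair on chromosome X, were almost level in NC (0.03), and Tlr8 led by 0.29 in CKD and 0.26 in SZ. The shift of 0.27 for CKD against NC (adjusted exact permutation p = 0.029) and that of 0.24 for SZ against NC (adjusted p = 0.014) were both lost with 0.1 added to FPKM (adjusted p = 0.063 and 0.061). The first was also lost without CKD 2, CKD 5 and SZ 3 (adjusted exact permutation p = 0.062) and without any 1 of NC 1, NC 3, NC 4 or CKD 1 to CKD 4.

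Tifa was below Myd88 by 2.21 log2 units in NC, by 0.08 in CKD and by 1.21 in SZ. The shifts of 2.13, -1.13 and 1.00 all passed (adjusted exact permutation p = 0.0057), and the ranges of this pair did not overlap between any 2 groups.

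**Figure D3:**
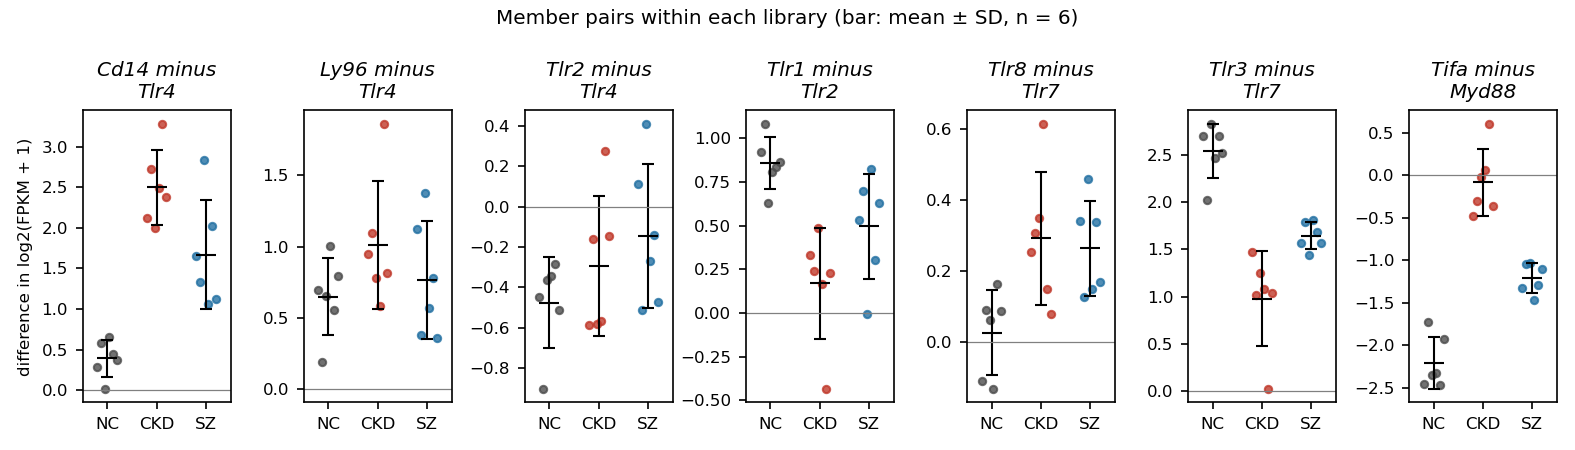
Within-library difference of log2(FPKM + 1) for the 7 pairs of members, with points for libraries and bars for the mean ± SD of each group of 6. For Tifa minus Myd88 the 3 groups are separate, with means of -2.21 in NC, -0.08 in CKD and -1.21 in SZ, while the groups of Ly96 minus Tlr4 overlap.

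The order of the members by mean FPKM differed between groups. In NC it was Tlr3, Myd88, Ly96, Cd14, Tlr1, Tlr4, Tifa, Tlr8, Tlr7 and Tlr2, and Myd88 and Ly96 were the only neighbours whose ranges did not overlap. In CKD it was Cd14, Myd88, Tifa, Tlr3, Ly96, Tlr8, Tlr7, Tlr4, Tlr1 and Tlr2, with overlapping ranges for each neighbouring pair. In SZ it was Myd88, Cd14, Tlr3, Tifa, Ly96, Tlr1, Tlr8, Tlr4, Tlr7 and Tlr2, and only Tlr3 and Tifa had separate ranges. Cd14 thus stood at rank 4 in NC, rank 1 in CKD and rank 2 in SZ, and Tlr2 was last in all 3 groups.

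Leukocyte markers rose with adenine, and those of macrophages were mostly lower with SZ-A added. All 12 macrophage markers rose in CKD against NC, where 24.4% of tested genes were called higher. Among them Itgam and Cd163, at 0.619 and 0.1446 FPKM or less in NC, passed the filter on low values only through the CKD and SZ libraries. The count is therefore in part set by the filter. In SZ against CKD 9 of 12 were called lower, against 6.82% of tested genes. The summed level of the 12 macrophage markers ran from 115.8 to 221.2 FPKM in NC, from 1070 to 2263 in CKD and from 444 to 981.5 in SZ. Most of this sum is Lyz2, with means of 128 FPKM in NC, 1005 in CKD and 424.8 in SZ. CKD 5 had the highest sum of all libraries and SZ 3 the highest in its group. Each of 4 T cell markers and each of 3 tested dendritic cell markers also rose with adenine. Of these, Cd3d, Cd3e and Flt3, at 0.4135, 0.443 and 0.8254 FPKM or less in NC, also passed the filter only through the CKD and SZ libraries. In SZ against CKD 2 of 4 T cell markers and 1 of 3 tested dendritic cell markers were called lower. For tested neutrophil and B cell markers the counts were 1 of 3 and 0 of 1, and the share over all tested genes was 6.82%. The list medians in that comparison were -0.642, -0.521, -0.897 and -0.658 log2 units, and -1.17 for macrophages. The T cell sums ran from 1.563 to 2.948 in NC, 8.157 to 27.04 in CKD and 7.259 to 13.41 in SZ. The dendritic cell sums ran from 3.361 to 7.086, 11.43 to 17.43 and 6.779 to 12.09. Of 7 neutrophil markers 3 were tested and rose, against 24.4% of tested genes called higher. Among the 3, Csf3r, at 0.8904 FPKM or less in NC, passed the filter only through the CKD and SZ libraries. Mpo, Cxcr2 and Camp were under 1 FPKM in every library and were not tested. Ngp, which reached 1.029 FPKM in CKD 2, was not tested either. The neutrophil sums ran from 1.046 to 7.521, 5.933 to 27.85 and 4.302 to 10.34 FPKM. Of 4 B cell markers, 1 was tested and rose. The sums for B cells ran from 0.4836 to 1.557, 2.716 to 10.94 and 1.142 to 4.343 FPKM. The part of these cells in the members' changes was not tested. In whole kidney, more or fewer cells of a type and more or less RNA per cell cannot be told apart.

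Some members also varied together inside groups. The deviation of each library from its group mean was correlated over the 18 libraries, given here as a description, since the points share libraries and depth. With the mean of the macrophage markers, Pearson r was 0.929 for Cd14, 0.906 for Tifa, 0.77 for Tlr2, 0.703 for Tlr8, 0.664 for Ly96 and 0.548 for Tlr7. It was 0.322 for Myd88, 0.244 for Tlr4, 0.0568 for Tlr1 and -0.411 for Tlr3. With the length slope, r was 0.698 for Tlr3, 0.642 for Tlr1, 0.611 for Tlr4, 0.196 for Tlr7 and 0.195 for Tlr8. It was negative for Cd14 (-0.398), Ly96 (-0.378), Tifa (-0.368), Myd88 (-0.191) and Tlr2 (-0.172). Among the 45 pairs of members the median r was 0.358, 19 pairs were over 0.5 and 10 were under 0. The highest were Cd14 with Tifa (0.831), Tlr7 with Tlr8 (0.797), Tlr2 with Ly96 (0.79) and Tlr1 with Tlr4 (0.781), and the lowest were Tlr3 with Cd14 (-0.563), Tlr3 with Tifa (-0.534) and Tlr4 with Myd88 (-0.425). CKD 5 was the highest CKD library for Cd14 (39.2 FPKM), Tifa (22.3), Ly96 (14.0), Tlr2 (4.01) and Tlr7 (4.65) and the lowest for Tlr3 (4.73). SZ 3 was the lowest SZ library for Tlr3 (6.23), Tlr1 (2.18), Tlr4 (1.40) and Tlr7 (1.66).

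**Figure D4:**
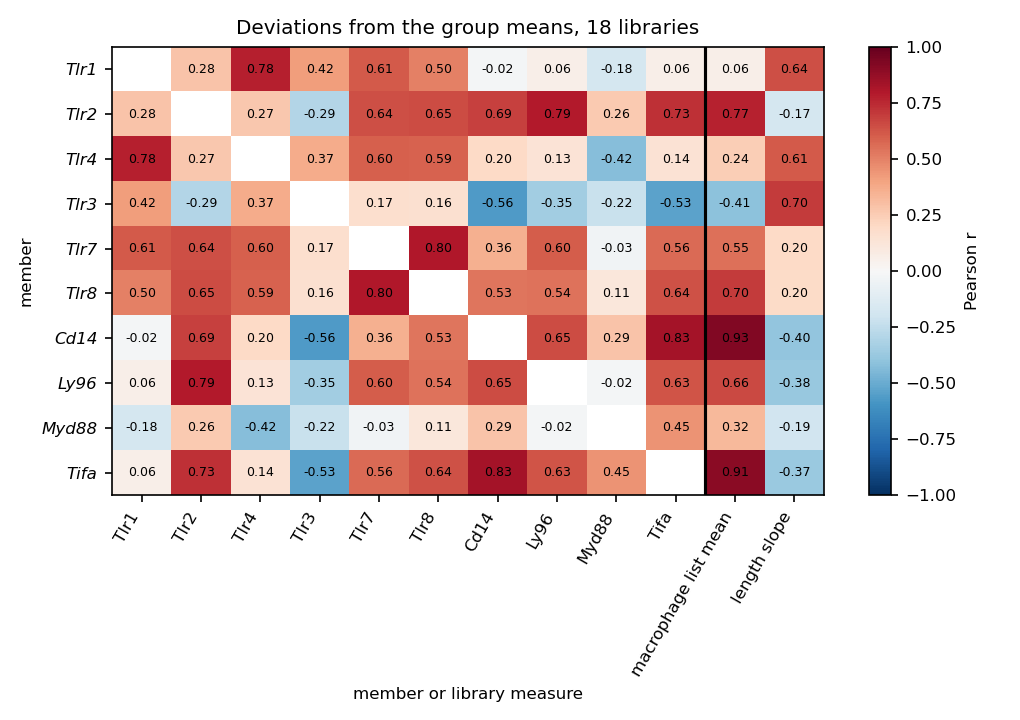
Pearson r over 18 libraries of each member's deviations from its group means with those of the other members, the macrophage marker mean and the length slope of the library. Cd14 and Tifa follow the macrophage mean most closely (0.929 and 0.906), and Tlr3, Tlr1 and Tlr4 follow the length slope (0.698, 0.642 and 0.611).

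The remaining Toll-like receptors were led by Tlr12, a receptor for protozoan profilin in mice, which moved opposite to the called members in CKD against NC and in SZ against CKD. Its mean was 15.8 FPKM in NC (SD 5.73), 6.05 in CKD (SD 2.70) and 13.9 in SZ (SD 5.70). The log2 difference was -1.28 for CKD against NC (SE 0.29, limma adjusted p = 0.0014), 1.07 for SZ against CKD (SE 0.29, limma adjusted p = 0.028) and -0.21 for SZ against NC (limma adjusted p = 0.65). Tlr13, a receptor for bacterial ribosomal RNA, followed Tlr7 and Tlr8 in direction, at 1.21, 4.93 and 2.65 FPKM in NC, CKD and SZ. It rose by 1.43 in CKD (limma adjusted p = 1.4e-07) and was lower in SZ than in CKD, at -0.69 (limma adjusted p = 0.0056). Cd180, a relative of TLR4 on B cells and myeloid cells, rose by 1.33 with adenine and differed by -0.21 in SZ against CKD (limma adjusted p = 0.32). Tlr6 rose by 0.58 and differed by -0.19 (limma adjusted p = 0.21). Tlr9, the receptor for unmethylated DNA, was not called in CKD against NC (0.32, limma adjusted p = 0.12). That difference was called without CKD 2, CKD 5 and SZ 3 (0.53, adjusted p = 0.0032), under scaling to a fixed FPKM sum (0.72, adjusted p = 0.032) and under plain totals (0.47, adjusted p = 0.037). In SZ against NC Tlr9 differed by 0.49 (limma adjusted p = 0.044). Tlr5, Tlr10 and Tlr11 did not pass the filter under the deposited scaling and were not tested on it, with CKD means of 0.639 FPKM for Tlr5, 0.71 for Tlr10 and 1.00 for Tlr11. Under scaling to a fixed FPKM sum Tlr10 and Tlr11 passed the filter and were higher in CKD than in NC, by 1.13 (limma adjusted p = 5.2e-05) and 1.35 (limma adjusted p = 3.3e-05). On that scale Tlr10 differed by -0.61 in SZ against CKD (limma adjusted p = 0.038) and Tlr11 by -0.49 (limma adjusted p = 0.13).

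In the wider pathway, 91 other genes in 7 lists were tested. In CKD against NC 56 were called higher and 11 lower, against 24.4% and 26.0% of all tested genes. Under scaling to a fixed FPKM sum the counts were 74 and 3 (of 96 tested), and under plain totals 69 and 5. In SZ against CKD 1 was higher and 26 lower, against 4.16% and 6.82%. In SZ against NC 39 were higher and 2 lower, against 12.5% and 8.61%. The medians were 0.72, -0.32 and 0.39 log2 units in the 3 comparisons. These shares are also those against which the counts of each list stand. As for the members, some genes passed the filter on low values through the CKD and SZ libraries, where they are higher. Examples are Trem2, Il1rn, Fgb and Il1rl1, with NC means of 0.604, 0.621, 0.698 and 0.460 FPKM. In the other direction Ptgs2, with a CKD mean of 0.622 FPKM, passed through NC. The counts called are therefore in part set by the filter. The lists were drawn up with results of these samples known and are no independent support for a direction. The SZ against CKD count of 27 called genes moved to 43 without CKD 1, to 16 without CKD 5, to 15 without SZ 4 and to 17 with only these 2 groups in the fit.

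Of 11 tested receptor partners and trafficking genes, 6 rose with adenine, 2 were lower, and 5 were lower in SZ than in CKD. Unc93b1, which carries TLR3, TLR7 and TLR9 to endosomes, rose by 2.06 log2 units (limma adjusted p = 4.0e-07) and differed by -0.88 in SZ against CKD (limma adjusted p = 0.016). Trem2, a lipid receptor of macrophages, rose by 3.58 and differed by -1.64 in SZ against CKD (limma adjusted p = 0.0056). Lbp, which extracts lipopolysaccharide for CD14, rose by 2.48, and its SZ against CKD difference of -0.95 did not pass (limma adjusted p = 0.12). Cd200r1, an inhibitory receptor of myeloid cells, differed by -0.85 in SZ against CKD (limma adjusted p = 0.0098). Rnf170 (-0.56) and Ap3b1 (-0.48) were lower in CKD, and both calls were lost under the 2 other scalings.

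Adaptors and kinases had the list median closest to 0 in CKD against NC (0.03), with 9 of 23 higher and 4 lower, against 24.4% and 26.0% of all tested genes. In SZ against CKD 3 of 23 were lower, against 6.82%. Btk, a kinase of B cells and myeloid cells, rose by 1.24 and was lower in SZ than in CKD, at -0.56 (limma adjusted p = 0.041). Irak4, the kinase recruited by MyD88, rose by 0.88 (limma adjusted p = 2.1e-05). Ticam1, which encodes TRIF, the adaptor of TLR3, rose by 0.77 and differed by -0.54 in SZ against CKD (limma adjusted p = 0.0070). Ripk2, the kinase downstream of NOD receptors, differed by -0.35 (limma adjusted p = 0.038), a call lost without CKD 2, CKD 5 and SZ 3 (adjusted p = 0.12). Chuk, which encodes the kinase IKK alpha, was lower in CKD by a difference of -0.94 (limma adjusted p = 7.8e-04). Irak1 (-0.55) and the adaptor Traf3 (-0.75) were also called lower, but not under the 2 other scalings. Traf3 also lost its call without CKD 2, CKD 5 and SZ 3 (-0.37, adjusted p = 0.088).

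Of 12 transcription factors, 7 rose with adenine, 0 were lower, and 3 were lower in SZ than in CKD. Spi1, which encodes PU.1, rose by 2.38 log2 units (limma adjusted p = 5.0e-07) and differed by -1.0 in SZ against CKD (limma adjusted p = 0.018). Irf8, a myeloid regulator, rose by 1.66 and differed by -0.64 (limma adjusted p = 0.011). Relb, of the NF-kB family, rose by 1.59, and its SZ against CKD difference of -0.46 did not pass (limma adjusted p = 0.12). Fos, a subunit of AP-1, differed by -2.14 in SZ against CKD (SE 0.65, limma adjusted p = 0.042), a call lost without CKD 2, CKD 5 and SZ 3 (adjusted p = 0.079).

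Negative regulators rose in 10 of 15 cases, with 2 lower in CKD and 3 lower in SZ against CKD. Socs3, a feedback inhibitor of cytokine signalling, rose by 3.96 (limma adjusted p = 9.0e-09) and differed by -1.16 in SZ against CKD (limma adjusted p = 0.016). Il1rl1, the IL-33 receptor, rose by 2.25 and differed by -1.34 (limma adjusted p = 0.0042). Nfkbie, an inhibitor of NF-kB, rose by 1.49 and differed by -0.56 in SZ against CKD (limma adjusted p = 0.056). Nfkbia, another such inhibitor, differed by -0.87 in SZ against CKD (limma adjusted p = 0.048), a call lost without CKD 2, CKD 5 and SZ 3 (adjusted p = 0.059). Tollip, an inhibitor of IRAK1, was lower in CKD at -0.69 (limma adjusted p = 3.2e-05), a call lost under scaling to a fixed FPKM sum. Rnf216 (-0.31) turned to 0.10 under that scaling.

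Genes of endogenous ligands rose in 9 of 11 cases, with 1 lower. Fgb, the fibrinogen beta chain, rose by 3.83 and differed by 0.25 in SZ against CKD (limma adjusted p = 0.63). The matrix genes Dcn (decorin) and Fn1 (fibronectin) rose by 2.81 and 2.77 and differed by -1.08 and -0.77 in SZ against CKD (limma adjusted p = 0.017 and 0.048). The Fn1 call for SZ against CKD was lost under scaling to a fixed FPKM sum (adjusted p = 0.052) and without CKD 2, CKD 5 and SZ 3 (adjusted p = 0.075). Vcan (versican) was the third gene of the list called lower in SZ, at -0.91 (limma adjusted p = 0.035). Hspd1, a mitochondrial chaperone, was lower in CKD at -0.72 (limma adjusted p = 0.0017), a call lost under scaling to a fixed FPKM sum.

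Target genes of the pathway rose in 12 of 14 cases, with 1 lower, and 8 were lower in SZ than in CKD. Il1rn, the interleukin-1 receptor antagonist, rose by 4.17 log2 units (limma adjusted p = 1.4e-08) and differed by -1.39 in SZ against CKD (limma adjusted p = 0.010). The monocyte attractant Ccl2 rose by 3.26 and differed by -1.01 (limma adjusted p = 0.020), and the cytokine Il1b rose by 1.98 and differed by -1.08 (limma adjusted p = 0.011). The neutrophil attractants Cxcl2 and Cxcl1 rose by 1.61 and 1.65 and differed by -1.27 and -1.21 in SZ against CKD. Ptgs2 (cyclooxygenase-2), which the normal kidney makes in the macula densa and medulla, was the only target called lower in CKD, at -2.03 (limma adjusted p = 1.4e-04), and differed by 0.06 in SZ against CKD. Il6, Tnf, Il10, Nos2, Il12a, Il12b and Cd80 did not pass the filter under the deposited scaling and were not tested on it. Ifnb1 was at 0 in every library. Under scaling to a fixed FPKM sum Tnf, Cd80 and Il12a passed the filter. In CKD against NC they differed by 1.255, 1.27 and 0.43 (limma adjusted p = 7.3e-04, 1.7e-04 and 0.15). In SZ against CKD they differed by -0.69, -0.75 and -0.31 (limma adjusted p = 0.098, 0.044 and 0.44).

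**Figure D5:**
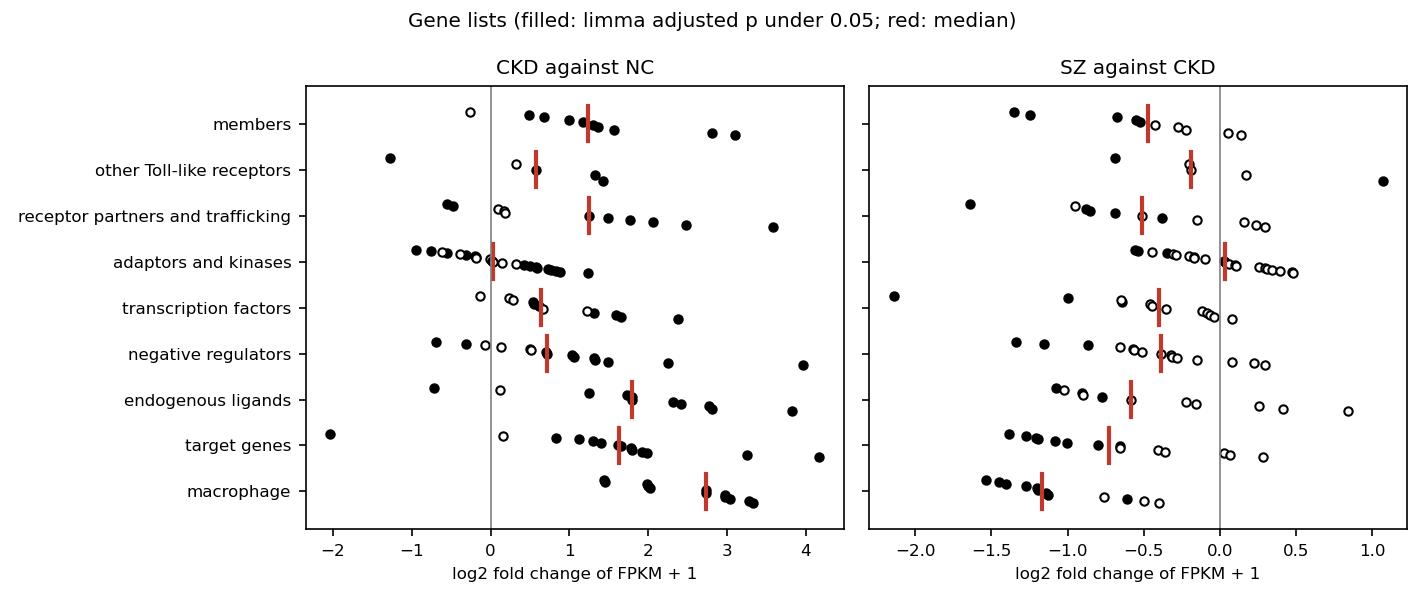
Log2 difference in FPKM + 1 of each tested gene (points) among the members, the 7 pathway lists and the macrophage markers, shown for the effect of adenine (CKD against NC) and of added SZ-A (SZ against CKD), with filled points for genes called by limma and red bars at list medians. Of the pathway lists, endogenous ligands and target genes have the highest medians in CKD against NC (1.80 and 1.63) and the lowest in SZ against CKD (-0.58 and -0.73).

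The protein-coding genes whose log2(FPKM + 1) was most like a member's over the 18 libraries were as follows, as Pearson r and with no test. For Cd14 they were Clec10a (0.99), Folr2 (0.988) and Trpv2 (0.988), and for Tifa Clec10a (0.987), Cnn2 (0.986) and Cpe (0.984). Tlr8 was closest to Pid1 (0.983), Ms4a6a (0.981) and Tnfrsf1b (0.981), and Tlr7 to Klra2 (0.985), Slc39a6 (0.982) and Gnb1 (0.981). Tlr2 was closest to Cap1 (0.973), Lcp2 (0.971) and Fblim1 (0.971), and Ly96 to Pdlim1 (0.971), Tbxas1 (0.966) and Cd33 (0.964). For Tlr4 the leading genes were Frmd6 (0.958), Atp8b2 (0.957) and Epb41l2 (0.955), and for Tlr1 Slc44a1 (0.93), Fyb1 (0.913) and Il6st (0.908). Myd88 was closest to Lurap1l (0.928), Rtn4rl2 (0.916) and Klf5 (0.914). Tlr3 had the lowest values, with Tbc1d32 (0.863), Zfp113 (0.858) and Arl5a (0.852). Because the groups differ, most of these values include the shift between groups. On deviations from the group means, Cd14 was closest to Il18bp (0.928), Clec10a (0.924) and Ctsk (0.922), and Tifa to Cmtm7 (0.954), Rac2 (0.945) and Nrm (0.938). On the same measure Tlr2 was closest to Pelp1 (0.843), Slc11a1 (0.843) and Coro1c (0.841), and Ly96 to Tgif2 (0.869), Pdlim1 (0.851) and Ddx49 (0.845). Tlr7 was closest to Epn2 (0.899), Klra2 (0.866) and Rai14 (0.852), and Tlr8 to Tgfb3 (0.881), Adamts12 (0.874) and Triqk (0.867). For Tlr4 they included Padi2 (0.886) and Antxr1 (0.876), and Tlr1 was closest to Pip4k2b (0.871), Frmd6 (0.859) and Ppp2r5c (0.858). Tlr3 was closest to Zdhhc20 (0.874), Mt-nd4l (0.861) and Tbc1d32 (0.853), and Myd88 to Csnk2a2 (0.818), Metap1 (0.797) and B4gat1 (0.777).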

How the data were processed

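The authors deposited 1 table of FPKM values for 18 kidney libraries. Reads were aligned with HISAT2 2.0.5 and the build is mRatBN7.2, per the submitters' processing notes, and for the counting program, strand setting and annotation nothing is given in the sources used here. The deposited FPKM multiplied by gene length gave whole reads for 100% of values, within a tolerance of 0.01 of a read, and 0 columns of samples were left unused. A gene needed FPKM of 1 or more in 6 or more of the 18 libraries (13851 passed and 18265 did not). The test was limma (version 3.58.1, R 4.3.3) on log2(FPKM + 1). The fit had 3 group means over all libraries and an intensity trend, was 2-sided, and used Benjamini-Hochberg adjustment over all tested genes, and calls are adjusted p-values under 0.05. Each fold is on that scale and understates the change of low genes. The limma step was tested on simulated data. Within-library differences of 2 members were tested by exact permutation over all splits of 6 against 6 in scipy 1.17.1. The length slope of a library is that of its deviations from the mean over libraries on log2 gene length, over genes whose mean FPKM is 5 or more.

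The alternatives were 0.1 added to FPKM, no filter, scaling to a fixed FPKM sum, plain read totals, limma's voom on recovered reads, a lowess correction for gene length (span 0.3), fitting only the groups compared, a block for replicate number, and leaving out single libraries or CKD 2, CKD 5 and SZ 3. The members, gene lists and tests were chosen with earlier results of these data known. Named pathway genes are, per list, for adenine against none and for SZ against CKD, up to 3 called genes in each direction with the largest change, besides all Toll-like receptors. Values named elsewhere in the text outside this rule, such as the target genes not tested on the deposited scaling, were chosen after they were seen. From each marker list the sums are given. Some results of the naming rule are not reported here. Promoters are from RefSeq on GRCr8, not the build of the table, and were matched by symbol. Their motif search used windows of 300 bases.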

Additional observations from a re-analysis of the deposited data

Results flagged for a closer look

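In 3 of 30 combinations of member and group, 1 library stood apart on the scale of log2(FPKM + 1). Its gap to its nearest neighbour, as a part of the group's range, was above the 95% critical value of Dixon's test for 6 samples. The gaps below are on that log2 scale and not on FPKM. Chance gives such a gap in about 1 in 20 groups. Tlr2 in NC 1 was the lowest of its group at 0.313 FPKM (gap 0.763 of the range). Tlr1 in SZ 3 was the lowest at 2.18 FPKM (gap 0.635), in a library whose values also fell with gene length (slope -0.248). Myd88 in NC 5 was the highest at 10.3 FPKM (gap 0.635). Leaving out each of these 3 libraries in turn kept the limma call of the same gene in every comparison.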

How the results depend on the processing

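Of 810 member fold changes recomputed under the alternatives, 799 kept their call, 10 lost it, 1 gained it and 0 calls changed direction. Of 294 within-library differences, 272 kept theirs, 19 lost it and 3 gained it. For SZ against CKD the number of members called was 3, against 5, with only the 2 groups compared in the fit and 3 without CKD 2, CKD 5 and SZ 3, and the number of pathway genes called was 17, against 27, with only the 2 groups in the fit. Leaving out 1 library at a time gave 4 to 6 members and 15 to 43 pathway genes for SZ against CKD, 9 members and 65 to 69 pathway genes for CKD against NC, and 8 to 9 members and 38 to 42 pathway genes for SZ against NC. The cause was not tested. For all tested genes, SZ against CKD gave 576 higher and 945 lower calls, and 143 and 411 with only the 2 groups in the fit. Leaving out 1 library gave 163 (without SZ 4) to 1468 (without SZ 3) higher and 370 to 1590 lower calls, without the same 2 libraries. Low read numbers limit Ly96, Tlr2, Cd14, Tifa, Tlr8 and Tlr4 in NC, where a library held as few as 27 to 40 reads of a gene.

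The replicate numbers of the labels were checked as a possible pairing of libraries across groups. Correlations of same-numbered libraries ran from -0.36 to 0.232, 4 of 18 were over 0.1 and 2 of 18 were the best match, so the numbers are not read as pairs. With the replicate number as a block, 9, 5 and 9 members and 67, 24 and 39 pathway genes were called in CKD against NC, SZ against CKD and SZ against NC, against 9, 5 and 9 and 67, 27 and 41 without it.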
